A study of Rattus norvegicus with 8 samples.

Results

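The miR-10, miR-99/100 and miR-125 families were followed in the prostatic urethra of rats after laser surgery. The 7 members were the 5p strands rno-miR-10a-5p, rno-miR-10b-5p, rno-miR-99a-5p, rno-miR-99b-5p, rno-miR-100-5p, rno-miR-125a-5p and rno-miR-125b-5p (below without prefix and suffix), chosen by name among the 758 rat miRNAs on a one-colour Agilent array. All 7 were detected on all 8 arrays and were among the 151 miRNAs tested. Prostatic urethral tissue came from male Sprague Dawley (SD) rats aged 10 to 12 months and was taken 5 days after the operation. In the TULP group (n = 4) the rats had a simulated transurethral laser prostatectomy, in which a thulium laser vaporizes the lining of the prostatic urethra, reached with an endoscope through the opened bladder. In the sham group (n = 4) the abdomen was opened at the midline and no laser was applied, so the groups differ by the endoscopy as well as by the laser. The labels name no transgene and no drug for either group. The submitters describe the arrays as biological replicates. Their free-text descriptions of the TULP samples also mention sham surgery, whereas the titles and the treatment entries name trauma, and the groups used here rest on the titles.

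The families are old and related. An animal miRNA guides a silencing complex to transcripts that pair with its seed, bases 2 to 8 from the 5′ end. miR-10a and miR-10b lie in the Hox gene clusters and are known for repressing Hox and other transcripts. miR-99a, miR-99b and miR-100 have a related seed and are known for repressing the growth kinase mTOR. miR-125a and miR-125b, the vertebrate counterparts of the worm timing miRNA lin-4, are known for repressing Lin28 and regulators of cell death and inflammation. Apart from the miR-10 genes the members come from 3 clusters, each of which holds a miR-99/100 gene, a let-7 gene and a miR-125 gene.

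The mature sequences listed by RefSeq on the GRCr8 assembly, matched for 6 members, are shown because the seed defines each family and because the 3′ part is what the array probes read. Capitals mark bases 2 to 8.
miR-10a-5p, chr10:81779730-81779752, plus strand: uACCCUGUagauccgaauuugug
miR-10b-5p, chr3:80035886-80035907, plus strand: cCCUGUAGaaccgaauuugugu
miR-99b-5p, chr1:67350070-67350091, plus strand: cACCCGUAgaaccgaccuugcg
miR-100-5p, chr8:50798307-50798328, plus strand: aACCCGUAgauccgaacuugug
miR-125a-5p, chr1:67350689-67350712, plus strand: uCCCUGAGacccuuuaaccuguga
miR-125b-5p, chr11:29732588-29732609, plus strand: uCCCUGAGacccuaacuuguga

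miR-99b and miR-100 had the same seed, and so had miR-125a and miR-125b. The annotated start of miR-10b lay 2 bases after that of miR-10a, so that its bases 2 to 8 read differently. Its hairpin carries UA just before that start, and counted from there its seed would be the ACCCUGU of miR-10a. With the starts aligned in this way miR-10a and miR-10b differed by U12A, counted from the 5′ end of miR-10a. miR-100 and miR-99b differed by A1C, U11A, A16C and U21C, counted from the 5′ end of miR-100. miR-125a and miR-125b shared their first 13 bases.

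In the RefSeq gene table Mir10a neighbours Hoxb4 and Hoxb3, and Mir10b lies within the span of Hoxd4. Mir99a, Mirlet7c1 and Mir125b2 lie within the long non-coding gene LOC103693508 on chromosome 11. Mir100, Mirlet7a-2 and Mir125b1 lie within Mir100hgl and Lnc215 on chromosome 8, and Mir99b, Mirlet7e and Mir125a lie within Spaca6 on chromosome 1. miR-125b can therefore come from 2 of the clusters, and its probes cannot tell the sources apart.

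Between 136 and 156 miRNAs were detected per array. Their summed signal was 21075 to 37357 scanner units on the sham arrays and 16787 to 19464 on the TULP arrays, a log2 difference of -0.64 (two-sided exact permutation test, p = 0.0286, the smallest p that 4 against 4 arrays can give). Quantile normalization removes this difference, so a normalized change is one relative to the other miRNAs. In whole tissue, fewer cells of a type and less RNA per cell cannot be told apart. All arrays lay on 1 slide. Its first row held sham 4 and TULP 1, 2 and 3, and its second row held sham 1, 2 and 3 and TULP 4, so that position on the slide largely follows the groups.

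After normalization 2 of the 7 members were down-regulated in the TULP group, miR-99a and miR-100, and none was up-regulated. The test was limma's moderated test across all 151 miRNAs at a Benjamini-Hochberg adjusted p under 0.05. By the same rule 30.5% of all tested miRNAs passed in either direction and 16.6% passed as lower in TULP. None of the 7 members passed that rule with a change of more than 2-fold, which 9.27% of the tested miRNAs did. The groups did not overlap for 2 members, again miR-99a and miR-100, against 29.1% of the tested miRNAs. The median log2 difference, TULP minus sham, was -0.21 over the members and -0.02 over all tested miRNAs. The share of members called, 28.6%, was close to the share of all tested miRNAs.

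**Figure D1:**
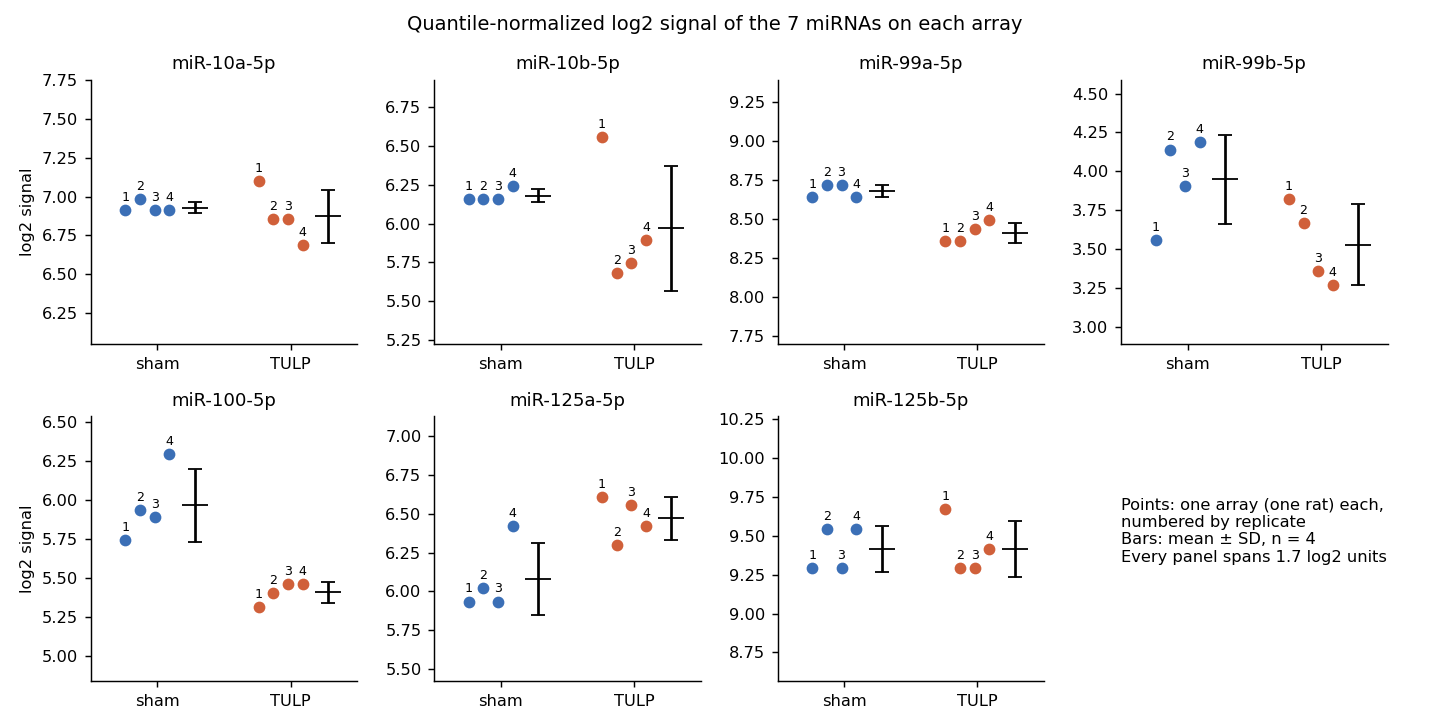
Quantile-normalized log2 signal of each member (vertical axis, the same span in every panel) on the 4 sham and 4 TULP arrays, with points numbered by replicate and bars giving the mean ± SD. The sham and TULP points separate for miR-99a and miR-100 and overlap for the other members.

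**Figure D2:**
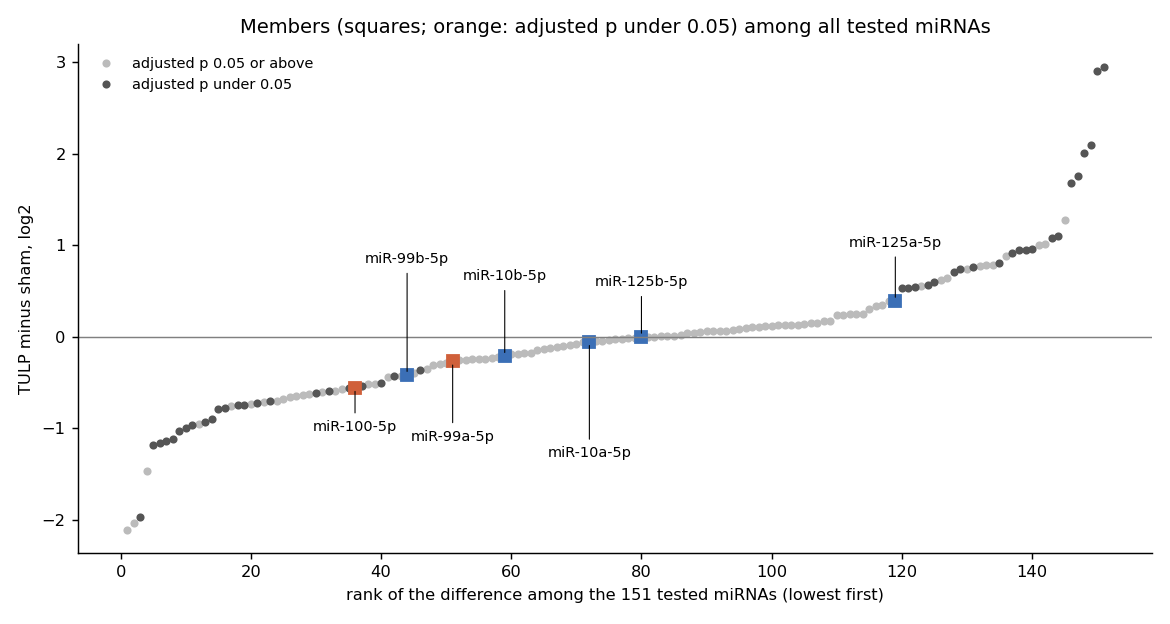
Log2 difference, TULP minus sham, of the 151 tested miRNAs (vertical axis) against its rank from the lowest (horizontal axis), with the members as labelled squares, orange where the adjusted p was under 0.05. The members lie between rank 36 (miR-100) and rank 119 (miR-125a) and none is at either end.

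Among the miR-99/100 family, miR-100 showed the largest difference of the members in size. Its normalized log2 signal was 5.74, 5.94, 5.89 and 6.30 in sham rats 1 to 4, and in TULP rats 1 to 4 it was 5.32, 5.40, 5.46 and 5.46. Every TULP array lay below every sham array. miR-100 fell by 0.56 on the log2 scale (SE 0.13, limma adjusted p = 0.0163), which is 1.47-fold. The sham mean was 5.97 ± 0.24 and the TULP mean 5.41 ± 0.07 (SD, n = 4 each). Its adjusted p ranged from 0.0207 to 0.0465 when each array was left out in turn. Within the first slide row the log2 difference was -0.91, from a single sham array, and within the second it was -0.40, from a single TULP array. With slide row as a block it was -0.65 (limma adjusted p = 0.0272).

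After quantile normalization miR-99a changed less than miR-100, with a smaller spread in sham rats (SD 0.041 against 0.236). In TULP rats the SDs were alike (0.065 against 0.068). Before normalization the log2 difference was -0.93 for miR-99a and -0.98 for miR-100. miR-99a read 8.64, 8.71, 8.71 and 8.64 in normalized log2 signal in sham rats and 8.36, 8.36, 8.43 and 8.49 in TULP rats. The equal values come from equal ranks under quantile normalization. The sham and TULP values did not overlap. miR-99a fell by 0.27 on the log2 scale (SE 0.08, limma adjusted p = 0.0336), which is 1.21-fold. The call was near its threshold. The adjusted p was 0.0512, 0.0979 and 0.0785 without sham 1, 2 or 3, and 0.0940 and 0.0815 without TULP 2 or 3. With slide row as a block the difference was -0.23 (limma adjusted p = 0.120), and within the 2 rows it was -0.26 and -0.20.

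miR-99b lay closest to its detection limit, and its value depended on which of its 2 probes were counted. The normalized log2 values were 3.56, 4.14, 3.91 and 4.19 in sham rats against 3.82, 3.67, 3.36 and 3.27 in TULP rats. Each TULP value was under the sham mean of 3.95 ± 0.29 (SD, n = 4), but the groups overlapped. The log2 difference was -0.42 (SE 0.19, limma adjusted p = 0.134).

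The 2 probes of miR-99b are shown because they gave that value between them. Both are DNA complementary to the 3′ part of the miRNA without a mismatch, and the capital marks the base that only the longer one has.
miR-99b-5p, 15-base probe: cgcaaggtcggttct
miR-99b-5p, 16-base probe: cgcaaggtcggttctA

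The scanner software counts a probe only where its signal exceeds 3 times its error. The 15-base probe read 3.62, 6.48, 4.19 and 7.90 scanner units on the sham arrays, above limits of 3.55, 4.37, 3.70 and 4.40. On the TULP arrays it read 4.21, 3.67, 3.28 and 3.14, below limits of 4.43, 4.06, 4.13 and 3.90. It was therefore counted on all sham arrays and on no TULP array, although TULP 1 read higher than sham 1. The 16-base probe was counted on all 8 arrays, at 8.52, 13.8, 11.8 and 16.7 units in sham and 11.9, 10.9, 9.32 and 8.25 in TULP, and taken alone it gave a normalized log2 difference of 0.14 (limma adjusted p = 0.559). With both probes summed on every array, a setting chosen after the data were seen, the difference was 0.0010 (SE 0.18). With normexp background correction, a planned setting that averages both probes and adds an offset of 50, it was -0.0064 (SE 0.04, limma adjusted p = 0.949).

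The total that the scanner file stores for miR-99b behaved differently again. On the sham arrays it equalled the sum of the miR-99b probes, at 12.1 to 24.6 units. On the TULP arrays it was 332, 256, 237 and 250 units, where the detected miR-99b probe gave 8.25 to 11.9. Those 4 values equalled the miR-99b probe plus the whole miR-99a total of the same array (320, 245, 228 and 242 units) to within 0.0004 units. Normalized as stored, miR-99b would appear 4.45 higher on the log2 scale in TULP. None of the other 6 members had a stored total above the sum of its detected probes. Over all rat miRNAs and arrays, however, 352 of the 1191 totals of detected miRNAs were stored above that sum, so such totals are not particular to miR-99b. All other values here use the sum rebuilt from the probes.

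**Figure D3:**
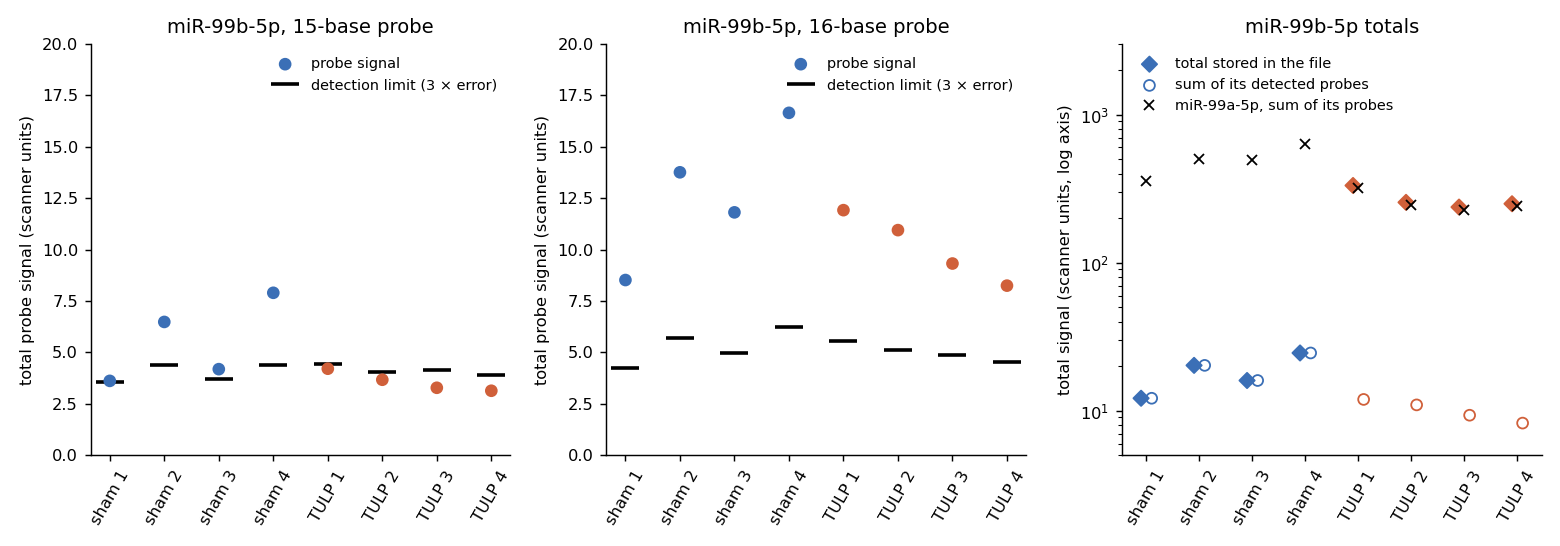
Signal in scanner units (vertical axes) of the 2 miR-99b probes on each array with the detection limit as a bar, and, on a log axis, the stored total of miR-99b, the sum of its detected probes and the miR-99a total. The 15-base probe lies above its limit on the 4 sham arrays only, and the stored miR-99b total moves up to the miR-99a total on the 4 TULP arrays only.

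In the miR-125 family, miR-125a was the one member whose normalized mean was higher in TULP, and the difference did not pass the test. Its log2 signal was 5.94, 6.02, 5.94 and 6.42 in sham and 6.60, 6.30, 6.56 and 6.42 in TULP. Each TULP value exceeded the sham mean of 6.08 ± 0.23 (SD, n = 4), and sham 4 lay among them. The difference was 0.39 on the log2 scale (SE 0.14, 95% interval 0.07 to 0.72, limma adjusted p = 0.0689). Without sham 4 it was 0.51 (limma adjusted p = 0.0255). Within the first slide row, where sham 4 was the one sham array, it was 0.065, and within the second it was 0.46.

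The 2 probes of miR-125a differed in what they gave, and are shown with the extra base of the longer one in capitals.
miR-125a-5p, 18-base probe: tcacaggttaaagggtct
miR-125a-5p, 19-base probe: tcacaggttaaagggtctC

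The 19-base probe alone rose by 0.42 on the normalized log2 scale (SE 0.12, limma adjusted p = 0.0334 over 251 probes, of which 32.3% passed). The 18-base probe alone gave 0.02 (SE 0.14, adjusted p = 0.917). Before normalization both were lower in TULP on average, with log2 differences of -0.24 and -0.37.

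miR-125b did not pass the test (limma adjusted p = 1.00). Its normalized log2 signal was 9.29, 9.54, 9.29 and 9.54 in sham and 9.67, 9.29, 9.29 and 9.42 in TULP. Both group means were 9.42, with a 95% interval of the difference from -0.29 to 0.29. Equal values on several arrays come from quantile normalization, which gives arrays the same value where the miRNA has the same rank.

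Neither member of the miR-10 family passed the test. miR-10a read 6.91, 6.98, 6.91 and 6.91 in sham and 7.10, 6.85, 6.85 and 6.69 in TULP, a log2 difference of -0.06 (SE 0.10, 95% interval -0.30 to 0.19, limma adjusted p = 0.796). miR-10b read 6.16, 6.16, 6.16 and 6.24 in sham and 6.56, 5.68, 5.74 and 5.89 in TULP. TULP 1 lay above all sham arrays and the other TULP arrays lay below them. The difference of miR-10b was -0.21 (SE 0.19, 95% interval -0.67 to 0.24, limma adjusted p = 0.514), and without TULP 1 it was -0.40 (limma adjusted p = 0.0151). In normalized signal TULP 1 was the highest TULP array for 5 members and the lowest, or tied for the lowest, for miR-99a and miR-100. Before normalization TULP 1 was the highest TULP array for every member, miR-99a (320 scanner units) and miR-100 (42.4 units) included.

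The probes of relatives are similar. The 21-base miR-10a probe would pair with miR-10b with 1 mismatch, the miR-99a probes with miR-100 with 1 mismatch, and the miR-100 probes with miR-10a with 2 mismatches. With the starts aligned as above, miR-10a and miR-10b differ at 1 of 21 compared bases. The miR-10b probes, which reach 1 base past the end of miR-10a, are therefore similar to miR-10a too. No mature sequence was matched for miR-99a, so no probe, those of miR-100 included, was compared with miR-99a. Binding of one relative to the probe of another was not tested. The 2 probes of miR-100 gave differences of -0.46 and -0.47, and those of miR-99a gave -0.25 and -0.30. The probes of miR-10a gave -0.12 and -0.14, those of miR-10b gave -0.55 and -0.21, and those of miR-125b gave -0.22 and 0.03.

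The scale of the change depended on the scaling. Before any normalization all 7 members were lower in TULP on average. miR-99a fell from 498.98 ± 114.33 to 258.65 ± 41.65 scanner units (SD, n = 4 each), and its groups did not overlap. miR-100 fell from 76.2 ± 25.3 to 37.1 ± 3.59 units, and miR-125b from 911 ± 231 to 507 ± 123 units, with TULP 1 at 688 and sham 1 at 687. miR-125a read 85.4 ± 30.3 units in sham and 69.3 ± 10.6 in TULP and had the smallest difference, -0.25 on the log2 scale (limma adjusted p = 0.440).

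On these signals 5 members passed the test as lower (miR-10b, miR-99a, miR-99b, miR-100 and miR-125b), where 31.8% of all tested miRNAs did. Scaled to the labelling spike-ins, RNAs that are added in equal amount before labelling, 6 members passed as lower, against 54.3% of all tested miRNAs. The log10 spike-in signal was 2.87 to 2.92 on the first slide row and 2.72 to 2.84 on the second. The rows did not overlap, so this scaling also follows position on the slide, which largely follows the groups. After spike-in scaling miR-99a fell by 1.16 and miR-100 by 1.21 on the log2 scale, while miR-125a was at -0.48 (limma adjusted p = 0.0506). The median of all tested miRNAs was itself -0.55 without normalization and -0.78 after spike-in scaling. Relative to that median, miR-100 was at -0.54 after quantile normalization and at -0.43 on both other scales, miR-99a was at -0.25 and -0.38, and miR-125a was at 0.42 and 0.30. miR-125b changed side, from 0.02 above the median after quantile normalization to -0.29 without it.

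**Figure D4:**
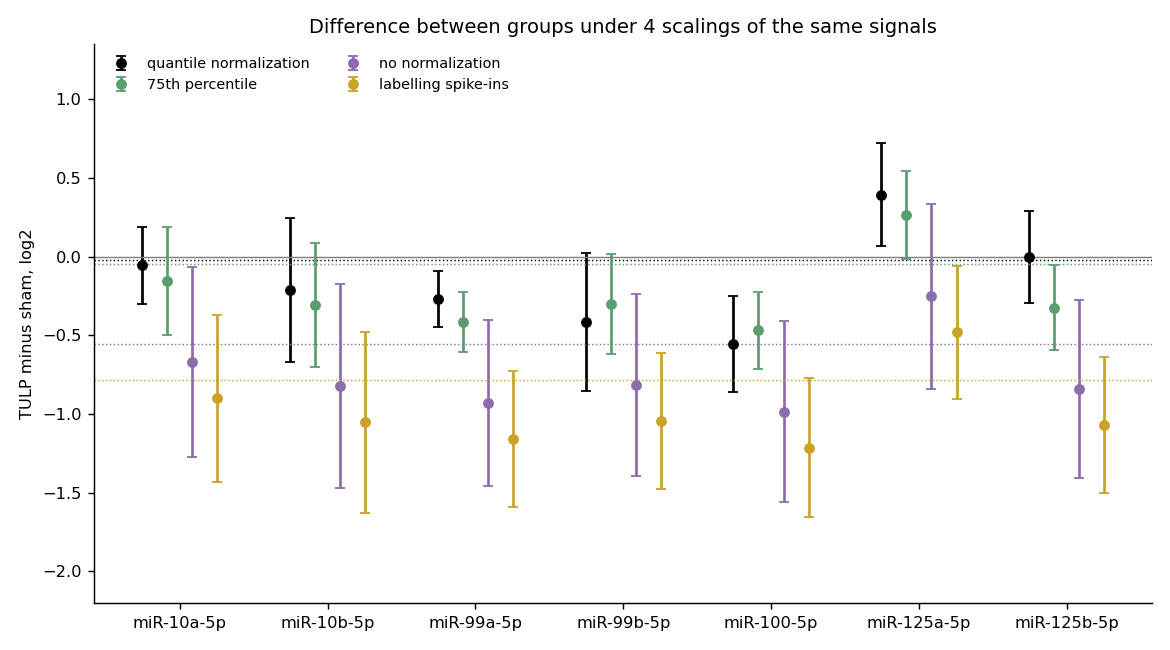
Log2 difference, TULP minus sham, of each member under 4 scalings of the same signals (vertical axis), with bars giving the 95% interval from limma and dotted lines the median of all 151 tested miRNAs under the scaling of that colour. miR-125a lies above the dotted line of its colour under all 4 scalings, while miR-99a and miR-100 lie below it.

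Ratios between 2 members on the same array do not depend on a common factor. Quantile normalization goes by rank and is no common factor, so ratios of normalized values can differ from those of signals as scanned. For 8 pairs of family or cluster mates the change of the log2 ratio between groups was tested by a two-sided exact permutation test, with p adjusted over the 8 pairs. The ratio itself depends on the probes and is no ratio of abundances. After quantile normalization the groups did not overlap for 4 pairs, each with an exact permutation p = 0.0286 and an adjusted p of 0.0571. No pair passed 0.05 after adjustment. As 0.0286 is the smallest p that these arrays can give, 4 separated pairs among 8 cannot reach a lower adjusted p. The adjusted p therefore cannot decide on these 4 pairs. The share of other miRNA pairs without overlap was not computed.

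The log2 ratio of miR-125a to miR-125b ranged from -3.52 to -3.12 in sham rats and from -3.07 to -2.73 in TULP rats, a change of 0.39 towards miR-125a. On signals without normalization the change was 0.59, again without overlap (exact permutation p = 0.0286, adjusted p = 0.114). In the deposited table it was 0.43 and with the stored totals 0.082, and the groups overlapped in both (exact permutation p = 0.0571 and 0.514). Before quantile normalization the stored totals of both miRNAs equalled the rebuilt ones up to rounding. Between the cluster mates miR-99b and miR-125a, both from Spaca6, the log2 ratio changed by -0.81, from a range of -2.38 to -1.88 in sham to -3.20 to -2.63 in TULP. This ratio carries the probe loss of miR-99b. With both miR-99b probes summed on every array the change was -0.39 and the groups overlapped (adjusted p = 0.114).

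The log2 ratio of miR-100 to miR-125b changed by -0.56 after quantile normalization, without overlap, and by -0.14 without normalization, where the groups overlapped (adjusted p = 0.419). That of miR-99a to miR-100 changed by 0.29 after quantile normalization and by 0.05 without it. The change between miR-99a and miR-125b was -0.27 after quantile normalization (exact permutation p = 0.0571, adjusted p = 0.0914) and -0.09 without it (exact permutation p = 0.314). After quantile normalization it was 0.16 between miR-10a and miR-10b (adjusted p = 0.457), 0.15 between miR-99a and miR-99b, and 0.14 between miR-99b and miR-100 (both adjusted p = 0.543). Of the 4 pairs without overlap after quantile normalization, the miR-125a to miR-125b and miR-99b to miR-125a pairs were also without overlap on the signals as scanned.

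**Figure D5:**
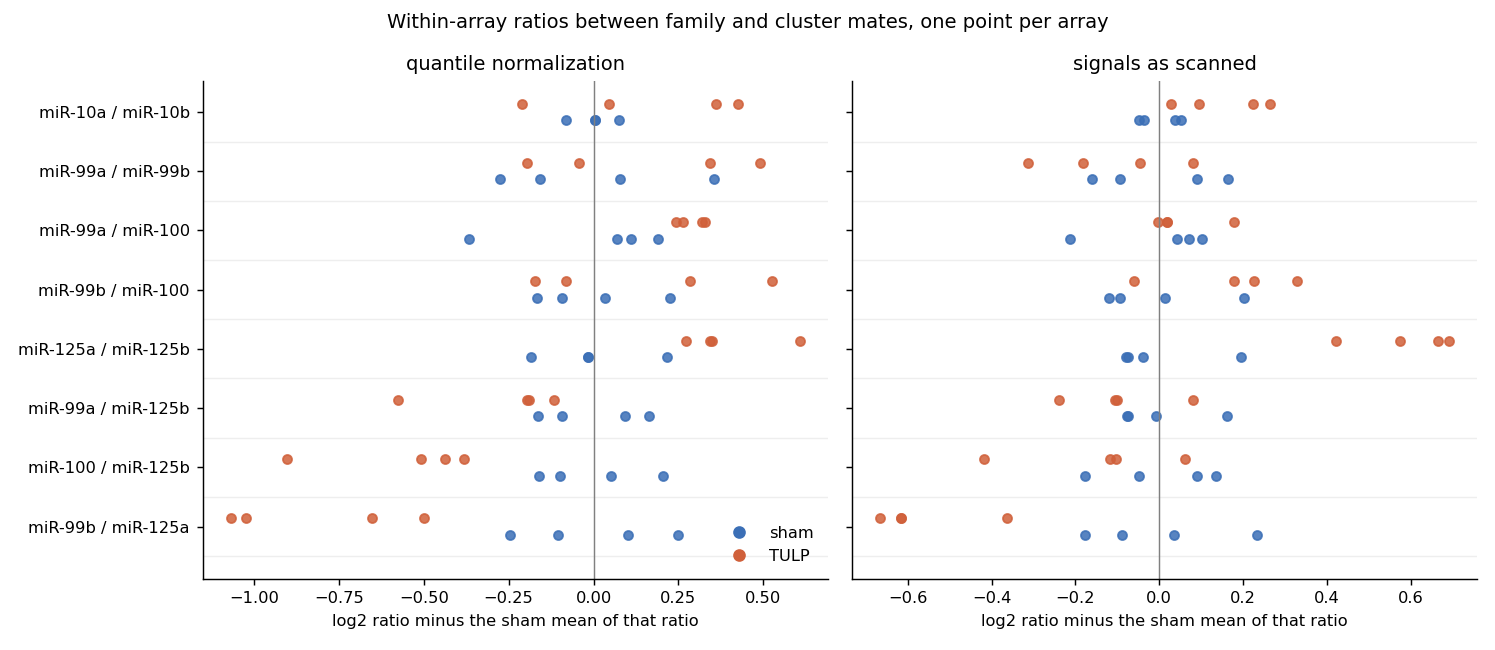
Within-array log2 ratio of each of the 8 pairs, minus the sham mean of that ratio (horizontal axis), on each sham and TULP array after quantile normalization and on the signals as scanned. The miR-125a to miR-125b ratio lies to the right of all sham arrays on all TULP arrays in both panels, whereas the miR-100 to miR-125b ratio separates the groups in the first panel only.

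The let-7 cluster mates are known as regulators of cell maturation. Of let-7a-5p, let-7c-5p and let-7e-5p none passed the test in either direction. let-7e, the mate of miR-99b and miR-125a, differed by -0.01 on the log2 scale (limma adjusted p = 0.960). let-7a, a product of the miR-100 cluster and of other genes, differed by 0.06 (adjusted p = 0.852), and let-7c, a product of the miR-99a cluster and of other genes, by -0.23 (adjusted p = 0.387).

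The opposite (3p) strands were near the limits of the array. Of the 8 such products with probes, 7 were detected on no array, among them miR-125b-1-3p and miR-125b-2-3p, which could have told the 2 miR-125b genes apart. miR-99a-3p was detected on 3 sham arrays at 2.15 to 3.96 scanner units and on 1 TULP array at 2.32 units. Its log2 difference was 0.12 (SE 0.34, limma adjusted p = 0.879), a value that rests on the floor used on arrays without detection. After spike-in scaling it was -0.30 (limma adjusted p = 0.190). The mean spot signal of miR-99a-3p was 3.49 in sham and 3.05 in TULP.

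Of the other Hox-cluster miRNAs, miR-196a-5p and miR-196b-5p were tested and neither passed. miR-196a-5p, known for repressing Hoxb8, was lower on average in TULP by -0.60 on the log2 scale (SE 0.21, 95% interval -1.08 to -0.12, limma adjusted p = 0.0644). miR-196b-5p differed by -0.24 (adjusted p = 0.309). miR-196c-5p was detected on 1 array and miR-615 on none.

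Members of 3 of the 7 cell-type marker lists passed the test, and their part in the values of miR-99a and miR-100 was not tested. Of 5 striated muscle markers 4 were tested and 3 fell, against 16.6% of all tested miRNAs called lower, miR-133a-3p by 0.96, miR-1-3p by 0.74 and miR-133b-3p by 0.72 on the log2 scale, while miR-206-3p differed by 0.25 (limma adjusted p = 0.795) and miR-499-5p was not detected. The summed scanner signal of the muscle list was 12.20 to 13.28 in log2 units on sham arrays and 11.07 to 11.83 on TULP arrays. Of 5 leukocyte markers 4 were tested and 2 rose, miR-223-3p by 2.10 and miR-142-3p by 2.01, against 13.9% of all tested miRNAs called higher. miR-223-3p was detected on 8 arrays, miR-142-3p on 6 and miR-155-5p on 4, so differences of the last-named pair rest partly on floored values. The summed signals were 5.16 to 6.10 in sham and 5.98 to 6.69 in TULP, and these ranges overlapped. miR-150-5p differed by -0.59 (limma adjusted p = 0.0737) and miR-155-5p by 0.89 (adjusted p = 0.236), and miR-142-5p was not detected.

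Of 3 stromal markers 2 rose, miR-214-3p by 0.92 and miR-199a-5p by 0.60, while miR-199a-3p differed by 0.24 (limma adjusted p = 0.116). Their summed signal was 8.15 to 9.17 in sham and 8.58 to 8.67 in TULP, so the summed ranges overlapped. None of the 2 smooth muscle, 6 epithelial, 2 endothelial and 2 red blood cell markers passed. Summed signals were 9.64 to 10.14 in sham and 8.67 to 9.90 in TULP for smooth muscle and 9.21 to 9.67 and 8.16 to 9.59 for the epithelial list, whose 6 markers were detected on all arrays. The endothelial list summed to 6.68 to 7.85 and 6.36 to 6.93. The red blood cell list summed to 3.90 to 4.58 in sham and -2.32 to 4.49 in TULP. The value of -2.32 is no measured signal. It comes from a TULP array where neither marker was detected and each was set to 0.1. miR-451-5p was detected on 7 arrays. miR-126a-5p and miR-144-3p were not detected.

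Over the 8 arrays, the non-member miRNAs most like each member were named by Pearson's r of the normalized log2 signal. This is a description, since the 8 arrays share the split into groups and the normalization. miR-99a was most like miR-1b (r = 0.98) and miR-30a-5p (r = 0.96). miR-100 was most like the striated muscle miRNA miR-133a-3p (r = 0.94) and miR-30d-5p (r = 0.93). All 4 of these fell in TULP, by 0.77, 0.56, 0.96 and 0.37 on the log2 scale.

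miR-99b was most like miR-140-3p and miR-26a-5p (both r = 0.91). miR-125a was most like miR-15b-5p (r = 0.90), a member of the cell-cycle regulating miR-15/16 family that rose by 0.96 in TULP, and let-7d-5p (r = 0.89). miR-10a was most like miR-145-5p (r = 0.90) and miR-652-3p (r = 0.89), and miR-10b was most like miR-331-3p (r = 0.94) and its fellow Hox-cluster miRNA miR-196b-5p (r = 0.89). miR-125b was most like miR-25-3p (r = 0.82) and miR-331-3p (r = 0.79).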

How the data were processed

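Total RNA of 8 samples was hybridized to 8 one-colour Agilent miRNA arrays, scanned and read by the authors with Agilent Feature Extraction 10.7.1.1. The deposited scanner files give an intensity per probe with its error, background-subtracted, and a stored total per miRNA. The authors also deposited a table of quantile-normalized log2 values. Here each miRNA's total was rebuilt as the sum over probes above 3 times their error (0.1 where none was), quantile normalized over the 758 rat miRNAs, floored at 1.94 units and log2 transformed. No spot of a rat miRNA was saturated. The 151 miRNAs detected on at least 4 arrays were tested with limma 3.58.1 in R 4.3.3, with group as the only term and Benjamini-Hochberg adjustment, checked on simulated data. A call needed an adjusted p under 0.05, and the study's methods also ask for a fold change over 2. Single probes were fitted the same way (251 tested). Ratios were compared by exact permutation over 70 labellings. The number of arrays limits the precision. Alternatives were other scalings, stored totals, normexp with an offset of 50, the deposited table, the methods' t-test, other filters and floors, replicate and slide-row blocks, and leaving out each array.

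Genes named are the 7 members, their let-7 mates, opposite strands, other Hox-cluster miRNAs, the marker lists, and for each member the 2 tested miRNAs with the highest Pearson's r. The members and lists were chosen with earlier results of these data known. Sequences and neighbours are from RefSeq on GRCr8. The positions in the scanner files are on rn4 and were not used.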

Additional observations from a re-analysis of the deposited data

Results flagged for a closer look

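Of 44 sets of 4 values examined, 3 held an array far from the other 3, by the gap to its nearest neighbour over the range. For values without ties, chance alone gives such a gap in about 1 in 20 sets, here 2.2. That rate does not hold where the other 3 values are tied, as any single step then counts as a gap. For miR-10a, sham 2 read 6.98 in normalized log2 signal where the other sham arrays all read 6.91. For miR-10b, sham 4 read 6.24 where the others all read 6.16. Both gaps are single steps of rank under quantile normalization. The log2 ratio of miR-99a to miR-125b was -1.31 on TULP 1 and between -0.93 and -0.86 on the other TULP arrays.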

How the results depend on the processing

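The differences here are log2, TULP minus sham. miR-100 kept its direction under every alternative run, and passed wherever a test was run, except in the unfiltered set of miRNAs (-0.56, limma adjusted p = 0.114, more miRNAs tested) and with its 18-base probe alone (-0.46). Its size moved by more than 1.5 times with normexp (-0.22), without normalization (-0.98) and with spike-in scaling (-1.21). miR-99a also kept its direction under every alternative and lost its call with slide row as a block (-0.23), with the replicate block given below, with each probe alone (-0.25 and -0.30) and without 5 of the arrays. It was -0.42 with the 75th percentile, -0.46 in the deposited table and with control features in the normalization, -0.51 with stored totals, -0.93 without normalization and -1.16 with spike-in scaling. Leaving out single arrays gave -0.30 to -0.24 for miR-99a, -0.61 to -0.43 for miR-100, -0.40 to -0.12 for miR-10b, -0.12 to 0.00011 for miR-10a, -0.55 to -0.33 for miR-99b, 0.33 to 0.51 for miR-125a and -0.082 to 0.053 for miR-125b, and 1 to 3 members and 28 to 57 of all tested miRNAs passed.

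Without normalization 5 members passed, miR-10b at -0.82, miR-99b at -0.82 and miR-125b at -0.84 among them, and miR-125a turned to -0.25. Scaled to the labelling spike-ins 6 passed, with miR-10a at -0.90, miR-10b at -1.05, miR-99b at -1.05 and miR-125b at -1.07, and miR-125a at -0.48. Over the whole array 46 miRNAs passed (25 lower, 21 higher), 53 without normalization (48 lower, 5 higher) and 87 after spike-in scaling (82 lower, 5 higher). Without the filter 13 passed and 1 member, with stored totals 28, and with slide row as a block 28 and 1 member. Within slide rows, with 1 array in a group and no test, miR-10a was at -0.25 in the second row, miR-99a at -0.20 in the second, miR-100 at -0.91 in the first and miR-125a at 0.065 in the first.

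Values that turned or passed elsewhere were miR-10a with normexp (0.042), miR-125b with stored totals (0.035) and its 17-base probe (0.034), miR-99b with stored totals (4.45), its 16-base probe (0.14) and all probes summed (0.0010, a setting chosen after the data were seen), and miR-125a with its 19-base probe (0.42) and the methods' t-test before adjustment on the deposited table (0.36). With stored totals the ratio changes were -4.96 for miR-99a to miR-99b, 5.26 for miR-99b to miR-100, 4.33 for miR-99b to miR-125a, -0.54 for miR-99a to miR-125b, -0.85 for miR-100 to miR-125b and 0.082 for miR-125a to miR-125b, whose groups then overlapped, and miR-125a itself was at 0.12. The miR-99a to miR-99b change also turned without normalization (-0.11), in the deposited table (-0.056) and with all probes summed (-0.27). The stored totals and the probe counts account for the miR-99b values under stored totals, its 16-base probe and all probes summed. For the other members the stored and rebuilt totals were equal up to rounding. Their values with stored totals therefore moved only through quantile normalization together with the other miRNAs. The cause of the remaining changes was not tested.

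Nothing in the labels says that a replicate number links a sham and a TULP rat. Deviations of same-numbered arrays correlated between -0.10 and 0.27, and 2 of 4 sham arrays correlated best with their own number. With replicate number as a block 37 of all tested miRNAs and 1 member passed, miR-99a at -0.27 having an adjusted p = 0.111 by limma. Depth on an array is signal over background, which limits miR-99b and the 3p strands most.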
